A study of Mus musculus with 9 samples.

Results

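Chromatin regulators, the enzymes and remodelling complexes that modify histones and DNA or move nucleosomes, were followed in cortical cells marked by 3 interneuron driver lines. The members were all genes of the count tables whose symbols name a histone lysine demethylase (Kdm), a histone deacetylase (Hdac), a CHD remodeller, a Smarc or Arid subunit, a Setd or Kat enzyme, a DNA methyltransferase (Dnmt), a Tet dioxygenase or an Ezh subunit. They numbered 81 of 23319 gene symbols. The choice went by names and not by measured values, but it was made with earlier results of these data known. By class they were 17 histone lysine demethylases, 11 histone deacetylases, 9 CHD remodellers, 11 SWI/SNF (BAF) subunits, 3 ISWI-type or Smarcad1 ATPases, 6 other ARID proteins, 9 SET domain proteins, 7 lysine acetyltransferases, 3 DNA methyltransferases, 3 TET dioxygenases and 2 catalytic subunits of Polycomb repressive complex 2 (PRC2).

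Each of the 9 libraries held RNA of 150 green fluorescent cells picked by hand from upper-layer strips of medial prefrontal and anterior cingulate cortex at postnatal day 5. Cells of Nkx2.1-CreER;Ai47 pups, which had received tamoxifen at E17, made up 3 libraries (Nkx2.1), cells of SOM-Cre;Ai47 pups another 3 (SOM) and cells of VIP-Cre;Ai47 pups the last 3 (VIP). All 3 lines carried Ai47, a reporter that turns cells green after Cre has acted, so a label marks cells in which the driver was active at some time. The inducible driver was the only one with tamoxifen. A difference of Nkx2.1 from another line therefore cannot be told apart from an effect of tamoxifen or of the time of labelling. Neither sex nor the number of animals behind a line is given in the labels, and the spread that p-values rest on here, between the samples of a line, may be technical. In such bulk samples fewer expressing cells and less RNA per cell cannot be told apart.

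Each library held between 6484488 and 12465997 reads in genes, and levels are given as CPM, counts per 1000000 such reads after TMM scaling, so that 3 reads came to 0.248 to 0.447 CPM. All 7 GABAergic neuron markers in the tables were read in every library. Markers of astrocytes summed to 2351 CPM in Nkx2.1 replicate 1, against 37.7 to 379.7 CPM in the other 8 libraries, and markers of dividing cells to 379 CPM there, against 17.5 to 174 CPM. Of the 8 astrocyte markers 8 were read in that library, 4 and 3 in Nkx2.1 replicates 2 and 3, 3 to 5 in the SOM libraries and 2 to 6 in the VIP libraries. Markers of the oligodendrocyte lineage summed to 296, 261 and 304 CPM in Nkx2.1, 101, 266 and 191 CPM in SOM and 1.73, 112 and 46.8 CPM in VIP libraries, with 7, 3 and 4 of 8 read in Nkx2.1, 6, 6 and 3 in SOM and 4, 3 and 3 in VIP. Every Nkx2.1 sum lay above every VIP sum. The same order held for the levels of Arid4a, Arid5b, Chd4, Chd8, Smarca2 and Tet2. It also held for the summed levels of the TET dioxygenases and of the PRC2 catalytic subunits. These 6 genes were 8.11% of the 74 members tested, beside 7.31% of all genes tested with that order, so their number sets nothing apart. The part of oligodendrocyte lineage cells in those levels was not tested. Excitatory neuron markers summed to 117, 0 and 80.97 CPM in Nkx2.1, 9.84, 3.73 and 1.61 CPM in SOM and 157, 95.1 and 3.30 CPM in VIP libraries. Endothelial markers stood at 0 reads for 5 of 8 genes in all 9 libraries, and microglial markers for 3 of 8.

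DNA in the nucleus is wrapped around histones, and marks on histone tails or on cytosine set how readily a gene is read. Writers (Setd, Kat, Ezh, Dnmt) place marks, erasers (Kdm, Hdac, Tet) remove or convert them, and remodellers (CHD, BAF, ISWI) use ATP to shift nucleosomes. As neurons mature, several of these complexes exchange subunits, and loss of single genes such as Chd8, Arid1b, Setd5 or Setd1a is known to cause neurodevelopmental disorders in humans.

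No member differed between the lines past the threshold (adjusted p of 0.05) of an edgeR quasi-likelihood test with Benjamini-Hochberg adjustment over all genes. Of the 81 members, 74 met the filter on low counts and were tested. In Nkx2.1 against SOM libraries edgeR called 0 of 74, beside 0.0932% of all 10728 genes tested (0.0652% higher, 0.028% lower). In Nkx2.1 against VIP libraries it called 0 of 74, beside 0.308% (0.177% higher, 0.13% lower), and in SOM against VIP libraries 0 of 74, beside 0.0746% (0.0559% higher, 0.0186% lower). An uncalled member is not shown to be equal: the common biological coefficient of variation within lines was 1.398.

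Unadjusted edgeR p-values under 0.05 were found for 4 members in Nkx2.1 against SOM (5.41%, beside 11.3% of all genes tested). They were 3 higher (4.05%, beside 2.92%) and 1 lower (1.35%, beside 8.38%). In Nkx2.1 against VIP there were 11 (14.9%, beside 15.2%), with 7 higher (9.46%, beside 5.73%) and 4 lower (5.41%, beside 9.43%). In SOM against VIP there were 3 (4.05%, beside 6.99%), with 0 higher (beside 4.63%) and 3 lower (4.05%, beside 2.36%). The DESeq2 Wald test, run as an alternative, called Tet2 higher and Setd1a lower in Nkx2.1 against SOM, 2 of the 70 members with an adjusted p (2.86%), beside 8.88% of all genes (1.88% higher, 7.01% lower). It called 9 of 70 in Nkx2.1 against VIP (12.9%), beside 13% of all genes (4.37% higher, 8.62% lower). These were Arid4a, Arid5b, Setd8 and Tet2 on the higher side and Arid3a, Chd7, Kdm6b, Setd1a and Smarcd1 on the lower. In SOM against VIP it called Chd7 lower, 1 of 71 (1.41%), beside 4.6% of all genes (3.03% higher, 1.57% lower). Counted in either direction, no share of members lay above that of all genes, so these counts show nothing particular to the members.

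Every library of a line lay above, or every one below, all libraries of the other for 8 of 74 members in Nkx2.1 against SOM (10.8%, beside 19.9% of all genes tested), for 12 of 74 in Nkx2.1 against VIP (16.2%, beside 20.1%) and for 14 of 74 in SOM against VIP (18.9%, beside 19.9%). By direction these were 4 higher and 4 lower in Nkx2.1 against SOM (5.9% and 14% of all genes), 6 and 6 in Nkx2.1 against VIP (7.31% and 12.8%) and 5 and 9 in SOM against VIP (10.9% and 9%). The median fitted log2 fold change of the tested members was 0.37 between Nkx2.1 and SOM, 0.22 between Nkx2.1 and VIP and -0.14 between SOM and VIP, beside -0.0073, 0.0028 and -0.0037 for all genes tested. Any 2 of these comparisons share the libraries of 1 line. Setd8, Arid3a, Smarcd1 and Chd2 were singled out after their values were seen.

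**Figure D1:**
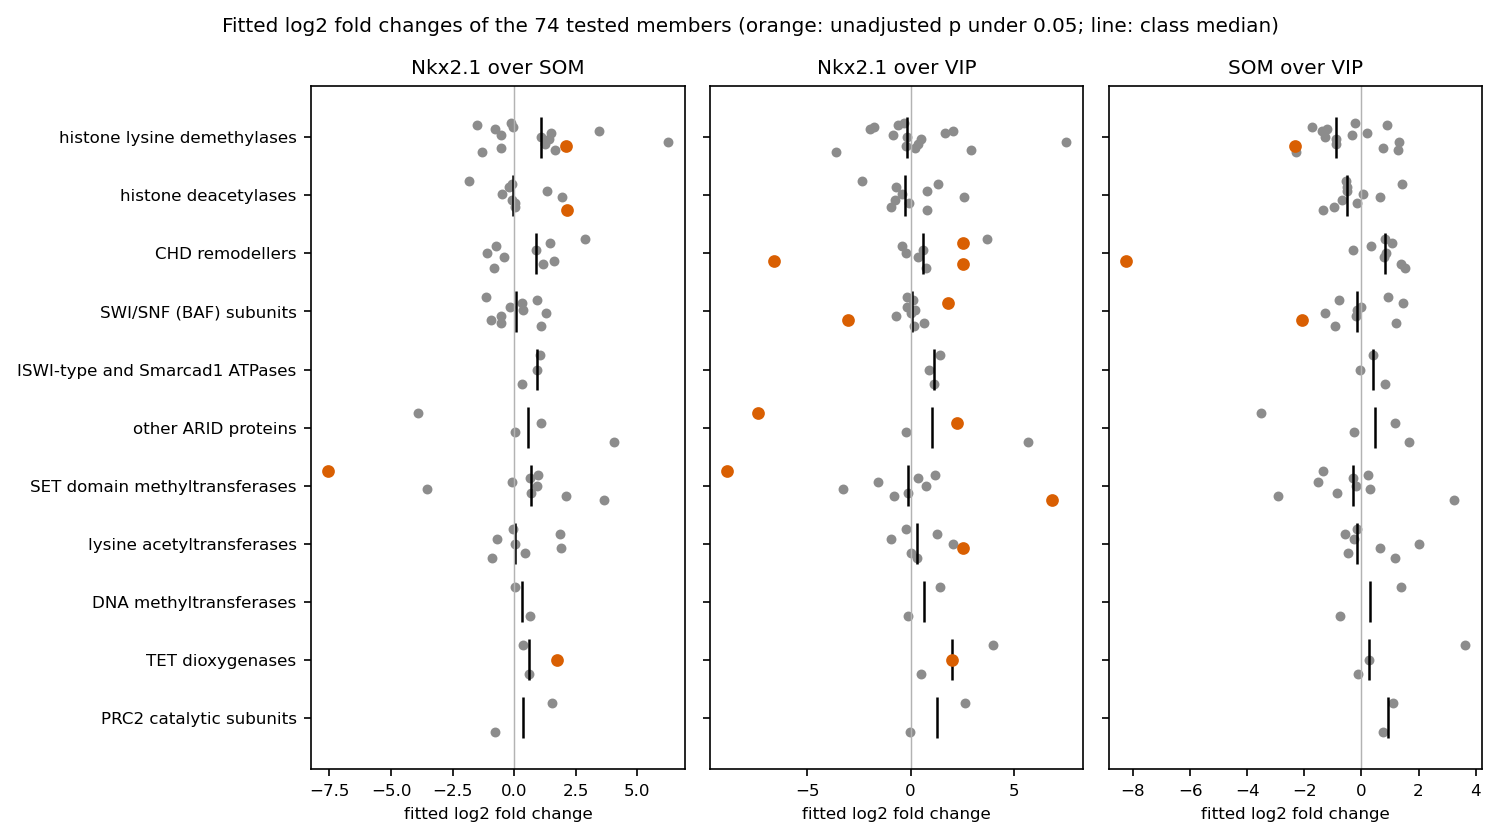
Fitted log2 fold changes (x axis) of the 74 tested members by class (y axis) in the 3 comparisons. Each point is 1 gene, orange points have an unadjusted p under 0.05 and none was called after adjustment, and the vertical line is the class median. Setd1a is the lowest point in both Nkx2.1 comparisons, at -7.55 and -8.90, and Chd7 in SOM against VIP, at -8.26.

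Kdm6a, the X-linked demethylase of histone H3 lysine 27, had 0 reads in all 9 libraries, as did Hdac6, which deacetylates tubulin in the cytoplasm, and Arid3b, an ARID family DNA-binding protein. The other 78 members were read in at least 1 library. Each of the 3 silent genes lay in a stretch where its neighbours were silent as well. Around Kdm6a (chrX:18162575-18279936, plus strand, GRCm38) all 22 plus-strand and all 15 minus-strand protein-coding genes within 5 Mb had 0 reads in every library. Around Hdac6 (chrX:7930120-7947889, minus strand) this held for 58 of 58 plus-strand and 44 of 45 minus-strand genes. On both strands together, the stretch without a read that holds both genes ran from 4291246 to 32278393 of the X chromosome, with 155 protein-coding genes. Around Arid3b (chr9:57790353-57836793, minus strand) all 58 minus-strand neighbours were at 0 reads, against 8 of 56 on the plus strand. That minus-strand stretch ran from 21291408 to the end of the annotated genes of chromosome 9 and held 484 protein-coding genes. Over the whole genome 34.7% of the 20334 protein-coding genes matched had no read in any library. For the 78 members with reads, the share of silent same-strand neighbours ranged from 0% to 83.3%, the highest being around Kdm5d on the Y chromosome, with a median of 28.8%. Silence of Kdm6a, Hdac6 and Arid3b cannot be told apart from silence of the whole stretch around each, and no statement on their expression is made.

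**Figure D2:**
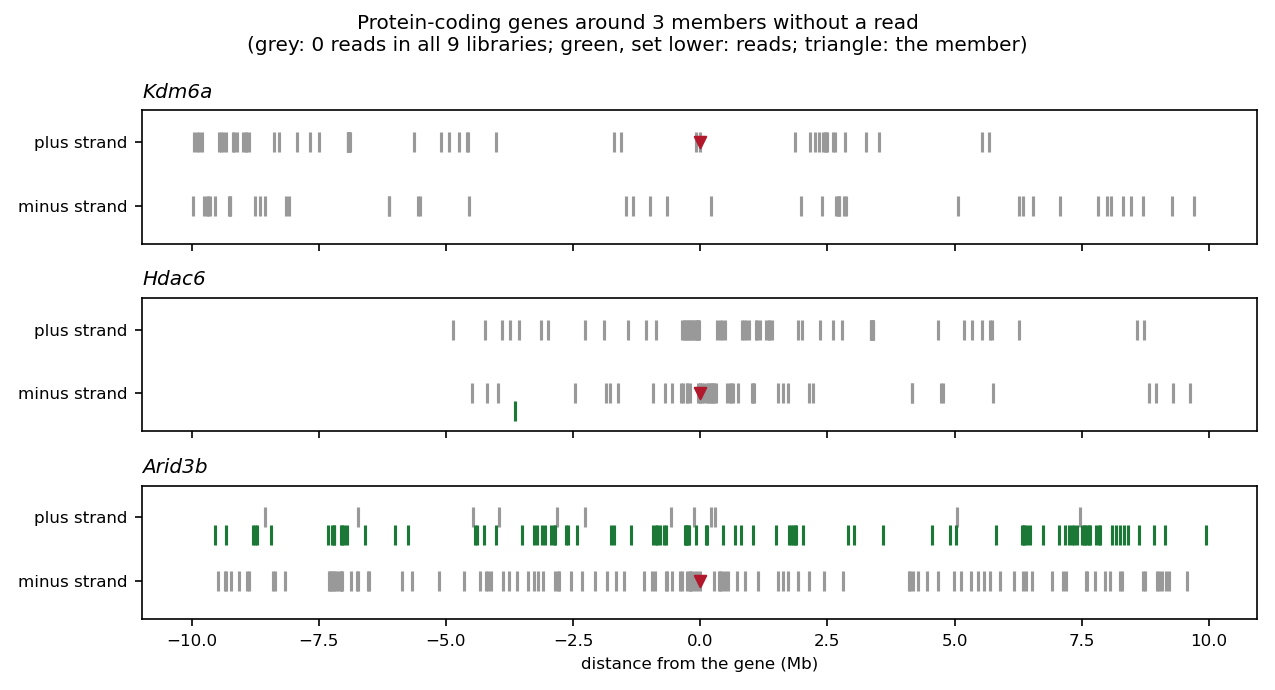
Protein-coding genes within 10 Mb (x axis, distance in Mb) of Kdm6a, Hdac6 and Arid3b, by strand (y axis). Grey marks had 0 reads in all 9 libraries, green marks, set slightly lower, had reads, and the triangle is the member. Grey marks fill both strands around Kdm6a, nearly all of both strands around Hdac6, and the minus strand around Arid3b, whose plus strand is mostly green.

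Among the writers of histone methylation, Setd1a had the lowest p of the members in Nkx2.1 against VIP and in Nkx2.1 against SOM. Setd1a (chr7 in GRCm38) encodes a catalytic subunit of the complexes that methylate histone H3 lysine 4 at active promoters. It stood at 0, 0.171 and 0.0835 CPM in Nkx2.1, 39.99, 9.25 and 6.798 CPM in SOM and 41.9, 42.6 and 58.2 CPM in VIP libraries. The Nkx2.1 libraries together held 3 reads of it, and the groups did not overlap in any of the 3 comparisons. The pooled ratio of VIP to Nkx2.1 reads was 527, with a counting interval of 180.1 to 2559.9, and that of SOM to Nkx2.1 reads was 216, with a counting interval of 73.6 to 1053. These 95% intervals treat each read as an independent draw and leave out the spread between libraries. Reads are not independent molecules, so the intervals are too narrow. Against VIP the fitted difference was log2 -8.90 ± 2.14 SE, edgeR unadjusted p = 0.00184 and adjusted p = 0.141, and against SOM it was log2 -7.55 ± 2.02 SE, edgeR unadjusted p = 0.00371 and adjusted p = 0.309. DESeq2 gave adjusted p = 4.27e-10 against VIP and 5.64e-07 against SOM. Its close relative Setd1b, which serves in a sister complex, was read in all 9 libraries at 27.3 ± 26.5 CPM in Nkx2.1, 14.02 ± 7.81 CPM in SOM and 11.9 ± 4.24 CPM in VIP libraries, with overlap in every comparison.

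Setd8 (Kmt5a in the annotation), which places a single methyl group on histone H4 lysine 20, was highest in 2 Nkx2.1 libraries. It stood at 202, 50.5 and 0.167 CPM in Nkx2.1, 5.56, 6.26 and 8.53 CPM in SOM and 0.989, 0.728 and 0.413 CPM in VIP libraries. Nkx2.1 replicates 1 and 2 were high, replicate 3 was below every VIP library, and all SOM libraries were above all VIP libraries. Nkx2.1 replicate 1, the highest, was also the library with the highest astrocyte and cell division marker levels, whose part in this was not tested. The fitted difference of Nkx2.1 over VIP was log2 6.87 ± 2.24 SE, edgeR unadjusted p = 0.0115 and adjusted p = 0.223, and DESeq2 gave adjusted p = 0.00018. Setd5, a gene of intellectual disability in humans, stood at 12.2, 0.0853 and 1.25 CPM in Nkx2.1, 45.9, 65.5 and 48.0 CPM in SOM and 0.989, 37.2 and 92.4 CPM in VIP libraries. All Nkx2.1 libraries lay below all SOM libraries (log2 -3.55 ± 1.99 SE, edgeR adjusted p = 0.572), while VIP replicate 1 was as low as the Nkx2.1 libraries. Setd2, which trimethylates histone H3 lysine 36 along transcribed genes, stood at 124 ± 102 CPM in Nkx2.1, 80.02 ± 59.3 CPM in SOM and 97.8 ± 5.83 CPM in VIP libraries, with overlap in every comparison. Setd7, a lysine methyltransferase of histone H3 and other proteins, stood at 55.6, 2.39 and 0 CPM in Nkx2.1, 0.642, 0.298 and 12.6 CPM in SOM and 60.2, 22.9 and 18.9 CPM in VIP libraries, with SOM below VIP in every library (log2 -2.91 ± 2.44 SE, edgeR adjusted p = 1). The remaining members, Setd3, an actin histidine methyltransferase, Setd4 and Setd6, averaged 5.02 to 18.6 CPM over the 9 libraries, with single libraries between 0 and 78.97 CPM and overlap in all comparisons. The class median of the fitted log2 values was 0.70 for Nkx2.1 over SOM, -0.14 for Nkx2.1 over VIP and -0.29 for SOM over VIP, over 9 tested members.

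Chd7 was the CHD remodeller with the widest distance between VIP and the other lines. This ATPase, mutated in CHARGE syndrome in humans, stood at 1.72, 0.426 and 0 CPM in Nkx2.1, 0.535, 0 and 0.115 CPM in SOM and 31.0, 59.4 and 124 CPM in VIP libraries. Every VIP library lay far above the other 6, in which Chd7 had at most 15 reads. The pooled ratio of VIP to SOM reads was 322, with a counting interval of 148 to 878, and that of VIP to Nkx2.1 reads was 127, with a counting interval of 81.9 to 208. For SOM against VIP the fit gave log2 -8.26 ± 2.52 SE, edgeR unadjusted p = 0.00809 and adjusted p = 0.435, and for Nkx2.1 against VIP log2 -6.63 ± 2.34 SE, edgeR unadjusted p = 0.0174 and adjusted p = 0.238. DESeq2 gave adjusted p = 1.83e-05 for SOM against VIP and 0.000267 for Nkx2.1 against VIP. Between Nkx2.1 and SOM, with 20 and 6 reads in sum and overlapping libraries, no difference was detectable at this depth.

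Chd8, a repressor of Wnt target genes tied to autism in humans, ran the other way. It stood at 380.0, 77.3 and 50.8 CPM in Nkx2.1, 52.4, 48.5 and 126 CPM in SOM and 22.9, 21.3 and 43.6 CPM in VIP libraries. The VIP libraries were the lowest, without overlap with Nkx2.1 (log2 2.53 ± 1.03 SE, edgeR unadjusted p = 0.0338 and adjusted p = 0.289) or SOM (log2 1.37 ± 1.00 SE, edgeR adjusted p = 1), and Nkx2.1 replicate 1, high in astrocyte markers, was the highest library. Without it the log2 value for Nkx2.1 over VIP was 1.16. Chd3, Chd4 and Chd5 are the alternative ATPases of the NuRD complex, which joins remodelling to histone deacetylation. Chd4 stood at 212, 195 and 324 CPM in Nkx2.1, 124, 133 and 135 CPM in SOM and 174, 126 and 185 CPM in VIP libraries, and it varied little within SOM libraries. Every Nkx2.1 library lay above every SOM and VIP library, but neither difference was called (edgeR adjusted p = 0.583 against SOM and 0.696 against VIP). Chd5, the family member typical of neurons, stood at 129.6, 153 and 208 CPM in Nkx2.1, 325, 475 and 260.3 CPM in SOM and 242, 74.5 and 264 CPM in VIP libraries. All Nkx2.1 libraries lay below all SOM libraries (log2 -1.11 ± 0.57 SE, edgeR unadjusted p = 0.081 and adjusted p = 0.517). Per kilobase of merged exons, Chd5 averaged 24.7 ± 12.3 CPM and Chd4 22.3 ± 7.91 CPM (mean ± SD, 9 libraries), and Chd5 was above Chd4 in all 3 SOM libraries and in VIP replicates 1 and 3. The lengths used were 9583 bases for Chd5 and 8019 for Chd4, against 9486 and 6718 in the smaller basic set of annotated transcripts. The order of the 2 means therefore depends on the transcripts merged. Chd3 stood at 58.7, 1.45 and 255 CPM in Nkx2.1, 273, 169.7 and 77.8 CPM in SOM and 43.0, 77.3 and 293 CPM in VIP libraries, a spread within each line that exceeded any difference between lines. Chd2, an epilepsy gene in humans, stood at 49.1, 317 and 204 CPM in Nkx2.1, 25.6, 80.4 and 99.8 CPM in SOM and 8.53, 34.8 and 54.4 CPM in VIP libraries (log2 2.54 ± 1.07 SE, edgeR unadjusted p = 0.0376 and adjusted p = 0.297 for Nkx2.1 over VIP), with overlap. Chd1, Chd6 and Chd9 averaged 50.9 to 128 CPM, overlapped in every comparison, and Chd1 ranged from 0 to 198 CPM within the Nkx2.1 libraries. Over the 9 members the class median was 0.90 for Nkx2.1 over SOM, 0.59 for Nkx2.1 over VIP and 0.83 for SOM over VIP.

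**Figure D3:**
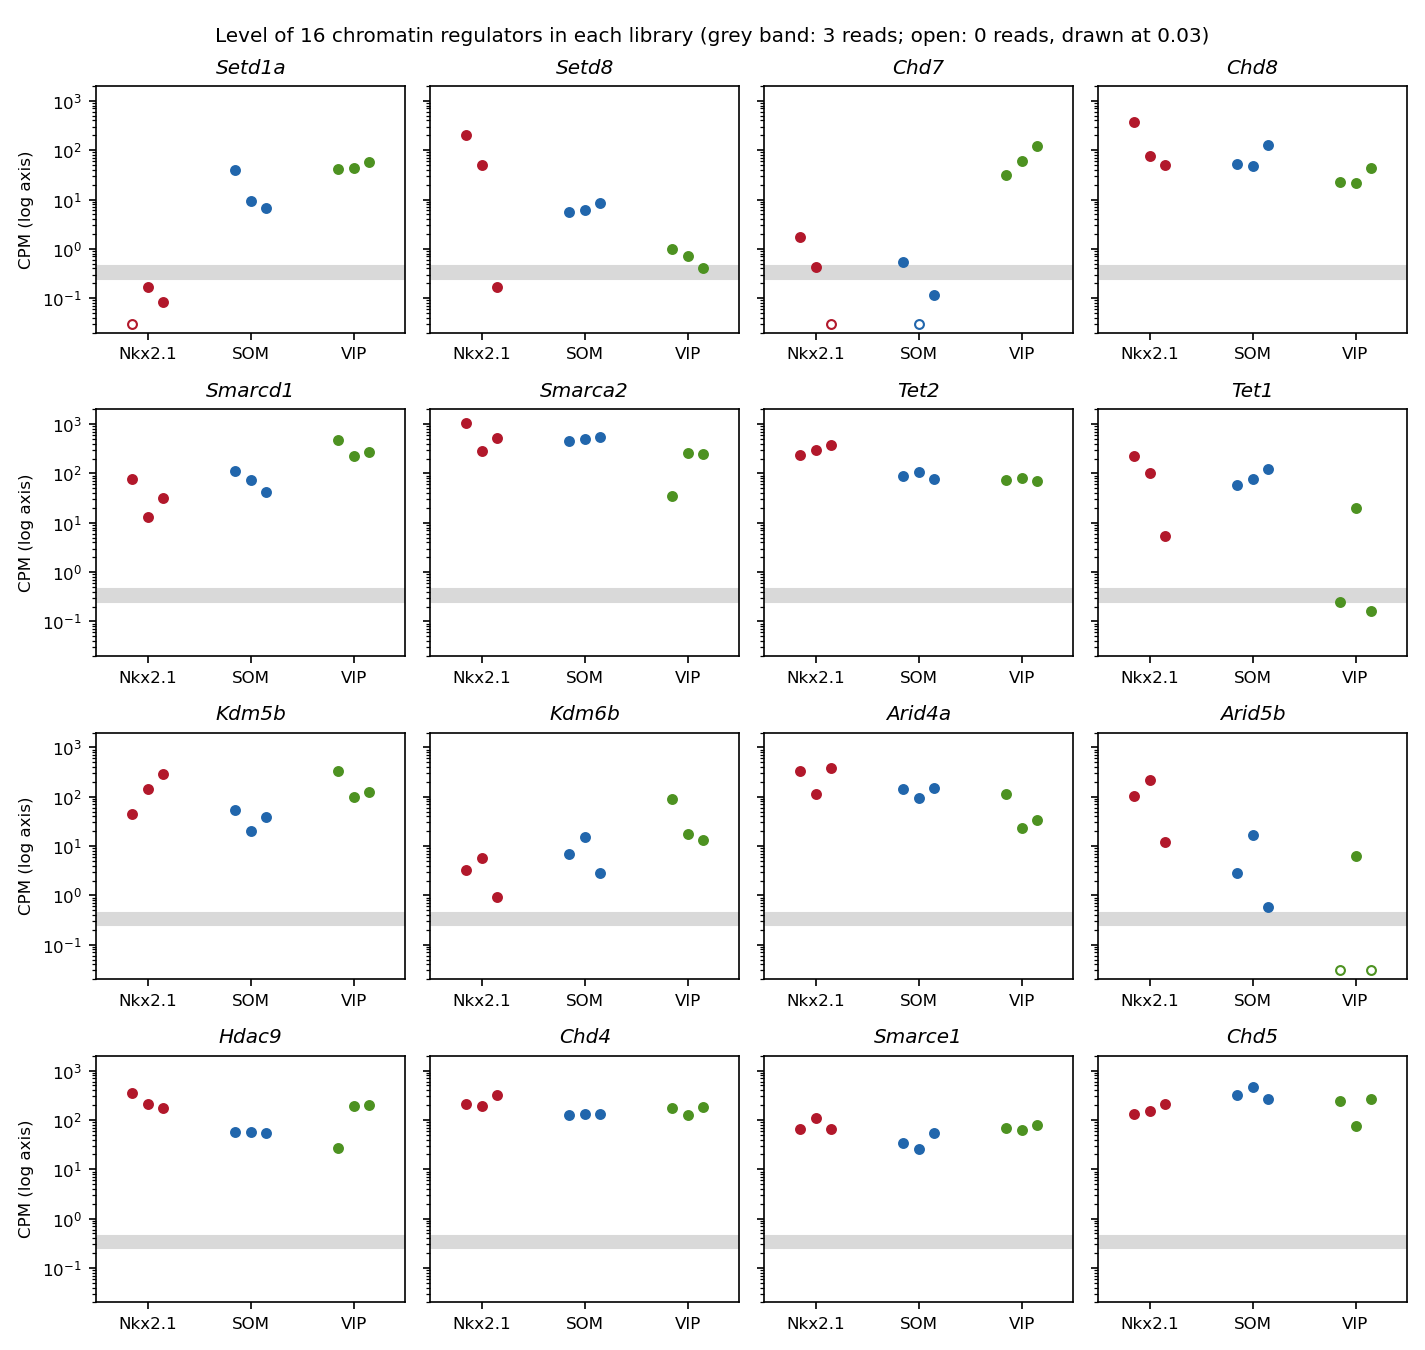
Level of 16 members in each library (y axis, CPM on a log axis) by line (x axis). Each point is 1 library, open points had 0 reads and are drawn at 0.03, and the grey band marks the level of 3 reads. Setd1a sits at or below the band in all 3 Nkx2.1 libraries, Chd7 is far above it in the 3 VIP libraries and at most 1.72 CPM in the others, and Tet2 is highest in the 3 Nkx2.1 libraries.

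BAF complexes hold 1 of 2 ATPases, Smarca2 or Smarca4, and gather core subunits such as Smarcb1, Smarcc1, Smarcc2, Smarcd and Smarce1 together with Arid1a or Arid1b. The summed level of the 11 subunits was 2152, 2103 and 2598 CPM in Nkx2.1, 2276, 1924 and 2345 CPM in SOM and 2137, 1897 and 2922 CPM in VIP libraries, and the groups overlapped. Within the complex, Smarcd1, a bridging subunit (BAF60a), had the largest fitted change of the 10 tested subunits in Nkx2.1 against VIP. It stood at 75.5, 12.9 and 32.1 CPM in Nkx2.1, 114, 73.8 and 42.7 CPM in SOM and 476, 227 and 272 CPM in VIP libraries. All VIP libraries were above all others, and the mean was 8.09-fold lower in Nkx2.1 and 4.23-fold lower in SOM than in VIP. The fit gave log2 -3.02 ± 0.83 SE, edgeR unadjusted p = 0.00433 and adjusted p = 0.168 for Nkx2.1 against VIP and log2 -2.08 ± 0.80 SE, edgeR unadjusted p = 0.0256 and adjusted p = 0.586 for SOM against VIP, and DESeq2 adjusted p = 0.00304 and 0.129. Of its alternatives, Smarcd3 did not share that order and stood at 118, 49.8 and 0.250 CPM in Nkx2.1, 103, 103 and 39.8 CPM in SOM and 17.3, 65.7 and 23.7 CPM in VIP libraries. Smarcd2 had 6 and 523 reads in VIP replicates 2 and 3, 1 read in Nkx2.1 replicate 1 and 0 reads in the other 6 libraries. It was read mainly in VIP, but almost only in 1 library, and was not tested.

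Smarca2 stood at 1064, 289 and 535 CPM in Nkx2.1, 464, 489.9 and 542 CPM in SOM and 34.6, 263 and 246 CPM in VIP libraries. All VIP libraries were below all Nkx2.1 libraries (log2 1.80 ± 0.71 SE, edgeR unadjusted p = 0.0292 and adjusted p = 0.28) and below all SOM libraries (log2 1.46 ± 0.70 SE, edgeR adjusted p = 0.786). Smarca4 stood at 54.1, 478 and 544 CPM in Nkx2.1, 503, 384 and 330.1 CPM in SOM and 254, 279 and 689.9 CPM in VIP libraries, with overlap in every comparison. Per kilobase, Smarca4 averaged 60.4 ± 29.0 CPM and Smarca2 30.6 ± 20.3 CPM over the 9 libraries (mean ± SD). Smarca4 was above Smarca2 in 8 of 9 libraries, the exception being Nkx2.1 replicate 1, the library with the most astrocyte marker reads, whose part in this was not tested. The lengths used were 14269 bases for Smarca2 and 6475 for Smarca4, against 7302 and 6376 in the basic set of transcripts. Before division by length Smarca2 averaged 436 CPM and Smarca4 391 CPM. Both the size of the difference and the order in single libraries therefore depend on the transcripts merged. Smarce1 stood at 65.5, 108 and 65.3 CPM in Nkx2.1, 33.4, 25.8 and 53.5 CPM in SOM and 69.0, 63.8 and 78.8 CPM in VIP libraries, with Nkx2.1 above SOM (log2 1.08 ± 0.92 SE, edgeR adjusted p = 0.815) and SOM below VIP in every library. Arid1a stood at 35.6, 22.9 and 180.1 CPM in Nkx2.1, 172, 107 and 241 CPM in SOM and 104, 95.2 and 73.5 CPM in VIP libraries, with SOM above VIP in every library. Arid1b stood at 263, 459 and 141 CPM in Nkx2.1, 130.5, 163 and 166 CPM in SOM and 324, 219 and 259 CPM in VIP libraries, with SOM below VIP in every library. Per kilobase Arid1b was above Arid1a in all VIP libraries, in 2 of 3 Nkx2.1 libraries and in 1 of 3 SOM libraries. Smarcc2, the scaffold subunit that prevails in neurons, stood at 327 ± 46.1 CPM in Nkx2.1, 475 ± 221 CPM in SOM and 541 ± 165 CPM in VIP libraries, with all Nkx2.1 libraries below all VIP libraries. Smarcc1 stood at 137 ± 59.5 CPM in Nkx2.1, 56.6 ± 33.6 CPM in SOM and 137 ± 45.6 CPM in VIP libraries, lower in every SOM library than in every VIP library, and Smarcb1 at 289 ± 262 CPM in Nkx2.1, 223 ± 35.3 CPM in SOM and 249 ± 89.0 CPM in VIP libraries, with overlap. The class median of 10 tested subunits was 0.08, 0.057 and -0.17 on the log2 scale for Nkx2.1 over SOM, Nkx2.1 over VIP and SOM over VIP. None of these subunits was called by edgeR, including those whose libraries did not overlap.

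**Figure D4:**
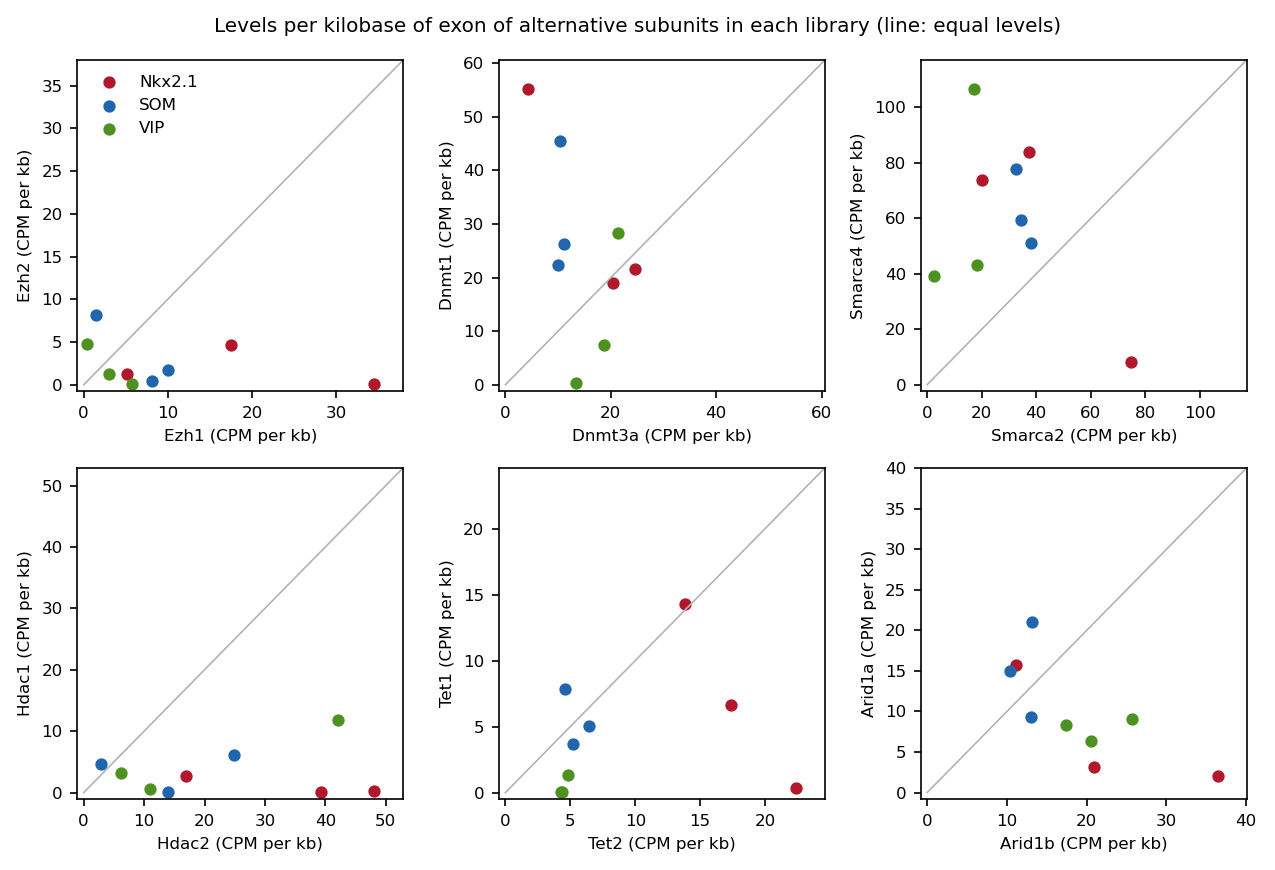
Levels per kilobase of merged exons (both axes, CPM per kb) of 6 pairs of alternative or related subunits. Each point is 1 library, coloured by line, and the grey line marks equal levels. Smarca4 lies above Smarca2 in 8 of 9 libraries, Ezh1 above Ezh2 in 7 and Hdac2 above Hdac1 in 8. Lengths are of the exons of all annotated transcripts, and the order within a pair can depend on this choice.

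The ISWI ATPases Smarca1 and Smarca5, which space nucleosomes, and Smarcad1, a remodeller linked to heterochromatin, were all tested. None had an edgeR unadjusted p under 0.05, which with 3 genes and 6.99% to 15.2% of all genes at that level sets nothing apart. Smarca1 stood at 406, 223 and 83.2 CPM in Nkx2.1, 82.8, 66.4 and 195 CPM in SOM and 4.57, 109.6 and 147 CPM in VIP libraries, and Smarcad1 at 5.61, 116 and 0.167 CPM in Nkx2.1, 4.28, 32.5 and 61.3 CPM in SOM and 0.371, 11.8 and 43.0 CPM in VIP libraries. The means of Smarca5 were 20.1 ± 29.3 CPM in Nkx2.1, 10.5 ± 6.44 CPM in SOM and 10.9 ± 8.997 CPM in VIP libraries. Groups overlapped for all 3 genes in every comparison.

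Among the other ARID proteins, Arid4a, a subunit of Sin3 deacetylase complexes, stood at 328, 115 and 379 CPM in Nkx2.1, 140.2, 94.3 and 152 CPM in SOM and 114, 23.6 and 33.5 CPM in VIP libraries. All Nkx2.1 libraries were above all VIP libraries, by a narrow margin between Nkx2.1 replicate 2 and VIP replicate 1 (log2 2.27 ± 0.80 SE, edgeR unadjusted p = 0.0173 and adjusted p = 0.237). Its sister Arid4b stood at 138 ± 152 CPM in Nkx2.1, 135 ± 18.2 CPM in SOM and 161 ± 94.8 CPM in VIP libraries, with overlap in every comparison. Arid5b, which acts with the demethylase Phf2, stood at 104, 213 and 12.02 CPM in Nkx2.1, 2.78, 16.7 and 0.576 CPM in SOM and 0, 6.35 and 0 CPM in VIP libraries. Nkx2.1 libraries were above all VIP libraries (log2 5.69 ± 2.61 SE, edgeR unadjusted p = 0.0534 and adjusted p = 0.337), and Nkx2.1 replicate 3 and SOM replicate 2 overlapped. The log2 value was 4.78 without Nkx2.1 replicate 2 and 13.09 without VIP replicate 2, so its size rests on single libraries. Arid3a, a transcription factor known from B cells, stood at 0, 0 and 0.751 CPM in Nkx2.1, 1.497, 7.16 and 3.23 CPM in SOM and 0.247, 54.3 and 81.3 CPM in VIP libraries. It was lower in every Nkx2.1 than in every SOM library, high in 2 VIP libraries and at 2 reads in the third (log2 -7.41 ± 2.84 SE, edgeR unadjusted p = 0.0255 and adjusted p = 0.27 for Nkx2.1 against VIP; DESeq2 adjusted p = 0.00209). Arid5a had 3 and 494 reads in Nkx2.1 replicates 1 and 3, 142 in SOM replicate 2 and 0 in the other 6 libraries, and was not tested. Over the 4 tested members the median fitted log2 value was 0.56 for Nkx2.1 over SOM, 1.02 for Nkx2.1 over VIP and 0.46 for SOM over VIP.

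Lysine demethylases reverse histone methylation, and their summed level was lower in every SOM library than in any other. It was 1011, 832 and 1104 CPM in Nkx2.1, 564, 517 and 616 CPM in SOM and 1165, 991 and 758 CPM in VIP libraries. Median fitted log2 values over 15 tested members were 1.08 for Nkx2.1 over SOM, -0.19 for Nkx2.1 over VIP and -0.88 for SOM over VIP. By sign, 8 were positive and 7 negative for Nkx2.1 over SOM, and 5 and 10 for SOM over VIP. Of the Nkx2.1 sums, Kdm4d alone made up 212 CPM in replicate 2, and Kdm4c and Kdm3a 214 and 151 CPM in replicate 1. The sums therefore lean in part on genes read mainly in 1 library of the line. Kdm5b, an H3 lysine 4 demethylase, stood at 43.7, 146 and 292 CPM in Nkx2.1, 52.7, 20.4 and 38.6 CPM in SOM and 337, 98.3 and 124 CPM in VIP libraries, with all SOM libraries below all VIP libraries (log2 -2.32 ± 0.90 SE, edgeR unadjusted p = 0.0274 and adjusted p = 0.602) and 1 Nkx2.1 library overlapping SOM (log2 2.11 ± 0.90 SE, edgeR unadjusted p = 0.0402 and adjusted p = 0.422). Kdm4b, which acts on H3 lysine 9, stood at 70.1, 184 and 229 CPM in Nkx2.1, 86.4, 27.3 and 114 CPM in SOM and 193, 252 and 104 CPM in VIP libraries, with overlap in every comparison.

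Kdm6b, the H3 lysine 27 demethylase induced by activity and differentiation signals, stood at 3.20, 5.798 and 0.918 CPM in Nkx2.1, 6.74, 15.1 and 2.88 CPM in SOM and 89.6, 17.9 and 13.5 CPM in VIP libraries. Every Nkx2.1 library lay below every VIP library (log2 -3.60 ± 1.74 SE, edgeR unadjusted p = 0.065 and adjusted p = 0.37; DESeq2 adjusted p = 0.0185), and VIP replicate 1 was far above the other VIP libraries. Since its X-linked counterpart Kdm6a lies in a stretch without reads, the total H3 lysine 27 demethylase transcript cannot be given. Kdm5c, an X-linked H3 lysine 4 demethylase of intellectual disability in humans, stood at 33.4, 0 and 83.2 CPM in Nkx2.1, 54.3, 42.5 and 74.3 CPM in SOM and 26.8, 0.312 and 73.3 CPM in VIP libraries, with single libraries at or near 0 in the Nkx2.1 and VIP groups. Its Y-linked relative Kdm5d had 545, 818 and 8 reads in Nkx2.1, 0, 282 and 1 in SOM and 0, 0 and 209 in VIP libraries, and the sex of the pups, not given, was not tested for a part in any result. Several erasers appeared in 1 library of a line and hardly in the others. Kdm3a, which acts on H3 lysine 9, had 1322, 3 and 3 reads in Nkx2.1 replicates 1 to 3, Kdm4c 1875, 1 and 1, and Kdm4d 0, 2481 and 0. The other members with reads (Kdm1a, the flavin-dependent LSD1, with Kdm1b, Kdm2a, Kdm2b, Kdm3b, Kdm4a, Kdm5a and Kdm5d) averaged 21.4 to 96.6 CPM over the 9 libraries and overlapped in every comparison. Kdm8 had 466 reads in Nkx2.1 replicate 3, 336 in VIP replicate 2 and at most 1 elsewhere, and was not tested.

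Histone deacetylases remove acetyl groups and sit in NuRD, Sin3, CoREST and NCoR complexes. Hdac9, a class IIa enzyme that binds and restrains Mef2 factors, stood at 352, 213 and 171 CPM in Nkx2.1, 57.0, 57.4 and 53.2 CPM in SOM and 27.3, 192 and 205 CPM in VIP libraries. Every Nkx2.1 library was above every SOM library, the SOM libraries were nearly equal, and VIP replicate 1 was the lowest of all (log2 2.13 ± 0.80 SE, edgeR unadjusted p = 0.023 and adjusted p = 0.367). Hdac3, the catalytic subunit of NCoR complexes, stood at 195, 106 and 147 CPM in Nkx2.1, 342, 138 and 149.6 CPM in SOM and 100.1, 326 and 175 CPM in VIP libraries, with overlap in every comparison. The partners Hdac1 and Hdac2 were unequal. Hdac2 stood at 215, 76.1 and 176 CPM in Nkx2.1, 62.3, 111 and 12.8 CPM in SOM and 27.3, 188 and 48.8 CPM in VIP libraries, and Hdac1 at 0.801, 9.29 and 0.334 CPM in Nkx2.1, 0.214, 21.0 and 16.02 CPM in SOM and 11.1, 40.6 and 1.90 CPM in VIP libraries. Per kilobase Hdac2 averaged 22.8 ± 16.7 CPM and Hdac1 3.27 ± 3.87 CPM (mean ± SD, 9 libraries), and Hdac2 was the higher in 8 of 9 libraries, SOM replicate 3 being the exception. Hdac11, a class IV enzyme, stood at 72.9 ± 30.2 CPM in Nkx2.1, 83.3 ± 68.3 CPM in SOM and 117 ± 10.5 CPM in VIP libraries, and all Nkx2.1 libraries were below all VIP libraries (edgeR adjusted p = 0.818). Hdac4, Hdac5, Hdac7, Hdac8 and Hdac10 averaged 25.7 to 87.5 CPM with overlap in every comparison. Of these Hdac4 stood at 486, 0.171 and 67.1 CPM in Nkx2.1 replicates 1 to 3, the first being the library with the highest astrocyte and cell division marker levels, whose part in this was not tested. For the 10 tested members the class median was -0.03, -0.26 and -0.50 on the log2 scale for Nkx2.1 over SOM, Nkx2.1 over VIP and SOM over VIP.

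Groups overlapped for all 7 lysine acetyltransferases in every comparison, where 19.9% to 20.1% of all genes tested showed no overlap, a count too small to set the class apart. Kat6b, mutated in a syndrome of intellectual disability in humans, stood at 279, 47.1 and 404 CPM in Nkx2.1, 8.66, 53.5 and 133 CPM in SOM and 52.7, 26.7 and 44.4 CPM in VIP libraries (log2 2.56 ± 1.11 SE, edgeR unadjusted p = 0.0427 and adjusted p = 0.313 for Nkx2.1 over VIP). Kat7 (HBO1), which acetylates histone H3, stood at 120.0, 20.9 and 234 CPM in Nkx2.1, 107, 13.7 and 152 CPM in SOM and 98.5, 91.8 and 185 CPM in VIP libraries. Kat2a, Kat2b, Kat5, Kat6a and Kat8, the last of which acetylates H4 lysine 16, averaged 13.5 to 69.7 CPM over the 9 libraries. In Nkx2.1 replicate 2 Kat2a had 3 reads, Kat8 1 read and Kat2b and Kat5 0 reads. Summed over the class the level was 669.9, 163 and 1013 CPM in Nkx2.1, 426, 388 and 483 CPM in SOM and 220.0, 341 and 522 CPM in VIP libraries. Of the exon bases of Kat5, 18.9% overlap the gene Rnaseh2c on the other strand, as 33.0% of those of Smarcd3 overlap Chpf2 and 14.1% of those of Kdm2b A930024E05Rik or Rnf34. The strand setting of the counting is not given in the sources used here, so reads of such partners cannot be told apart.

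The TET dioxygenases, which oxidise methylated cytosine, were higher in sum in every Nkx2.1 library than in any other. The summed level of Tet1, Tet2 and Tet3 was 715, 588 and 393 CPM in Nkx2.1, 206, 312 and 315 CPM in SOM and 223, 143 and 209 CPM in VIP libraries. Tet2 carried this order most evenly. It stood at 233, 293 and 378 CPM in Nkx2.1, 87.7, 109 and 77.3 CPM in SOM and 73.7, 81.3 and 71.8 CPM in VIP libraries. All Nkx2.1 libraries were above all SOM and all VIP libraries, by 3.30-fold over SOM and 3.98-fold over VIP in the means. The fit gave log2 1.72 ± 0.56 SE, edgeR unadjusted p = 0.011 and adjusted p = 0.328 for Nkx2.1 over SOM and log2 1.99 ± 0.56 SE, edgeR unadjusted p = 0.00503 and adjusted p = 0.17 for Nkx2.1 over VIP, and DESeq2 adjusted p = 0.000589 and 4.63e-05. SOM and VIP libraries overlapped. Of the members with a mean of at least 10 CPM, Tet2 had the lowest spread within lines: its largest coefficient of variation in a line was 24.1%. Tet1 stood at 220.4, 103 and 5.43 CPM in Nkx2.1, 57.4, 77.8 and 121 CPM in SOM and 0.247, 20.3 and 0.165 CPM in VIP libraries, with every SOM library above every VIP library (log2 3.63 ± 1.90 SE, edgeR unadjusted p = 0.0847 and adjusted p = 0.879) and 2 of 3 VIP libraries at 2 reads each. Tet3 stood at 262, 193 and 9.93 CPM in Nkx2.1, 61.4, 125 and 117 CPM in SOM and 149, 41.1 and 137 CPM in VIP libraries, with overlap in every comparison. In Nkx2.1 replicate 3 both Tet1 and Tet3 were low while Tet2 was at its highest. Per kilobase Tet2 was above Tet1 in 7 of 9 libraries, 9.25 ± 6.83 against 4.35 ± 4.73 CPM (mean ± SD).

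DNA methyltransferases place the mark that TET enzymes oxidise. Dnmt3a, which writes new methylation in neurons after birth, stood at 408, 340.4 and 70.5 CPM in Nkx2.1, 186, 166 and 172 CPM in SOM and 223, 309.9 and 354 CPM in VIP libraries. Every SOM library lay below every VIP library, a difference that edgeR did not call. Dnmt1, which copies methylation at replication and stays present in neurons, stood at 159, 139.9 and 407 CPM in Nkx2.1, 193, 165 and 335 CPM in SOM and 2.72, 54.7 and 209 CPM in VIP libraries, with overlap in every comparison. Per kilobase Dnmt1 averaged 25.1 ± 16.998 CPM and Dnmt3a 14.9 ± 6.65 CPM (mean ± SD, 9 libraries). Dnmt1 was above Dnmt3a in all 3 SOM libraries, in Nkx2.1 replicate 3 and in VIP replicate 3, and below it in the other 4. The lengths used were 7377 bases for Dnmt1 and 16642 for Dnmt3a, against 6301 and 9913 in the basic set of transcripts. The size of the difference and the order in single libraries depend on that choice. Dnmt3b, the embryonic enzyme, had 25 reads in SOM replicate 3 and 0 in the other 8 libraries, and was not tested. DNA methylation itself was not analysed here.

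Of the catalytic subunits of PRC2, which methylates histone H3 lysine 27, Ezh2 is typical of dividing progenitors and Ezh1 of postmitotic cells. Ezh1 stood at 257, 130.1 and 38.7 CPM in Nkx2.1, 11.01, 60.5 and 74.4 CPM in SOM and 22.6, 42.8 and 3.14 CPM in VIP libraries, and Ezh2 at 0.458, 30.9 and 8.68 CPM in Nkx2.1, 54.9, 2.83 and 11.4 CPM in SOM and 8.16, 0.624 and 32.1 CPM in VIP libraries. Both overlapped in every comparison. Per kilobase Ezh1 averaged 9.57 ± 10.7 CPM and Ezh2 2.496 ± 2.79 CPM (mean ± SD), and Ezh1 was the higher in 7 of 9 libraries, SOM replicate 1 and VIP replicate 3 being the exceptions. Nkx2.1 replicate 1, which had the highest level of cell division markers, held 4 reads of Ezh2. The median fitted log2 value over both genes was 0.38 for Nkx2.1 over SOM, 1.30 for Nkx2.1 over VIP and 0.92 for SOM over VIP.

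**Figure D5:**
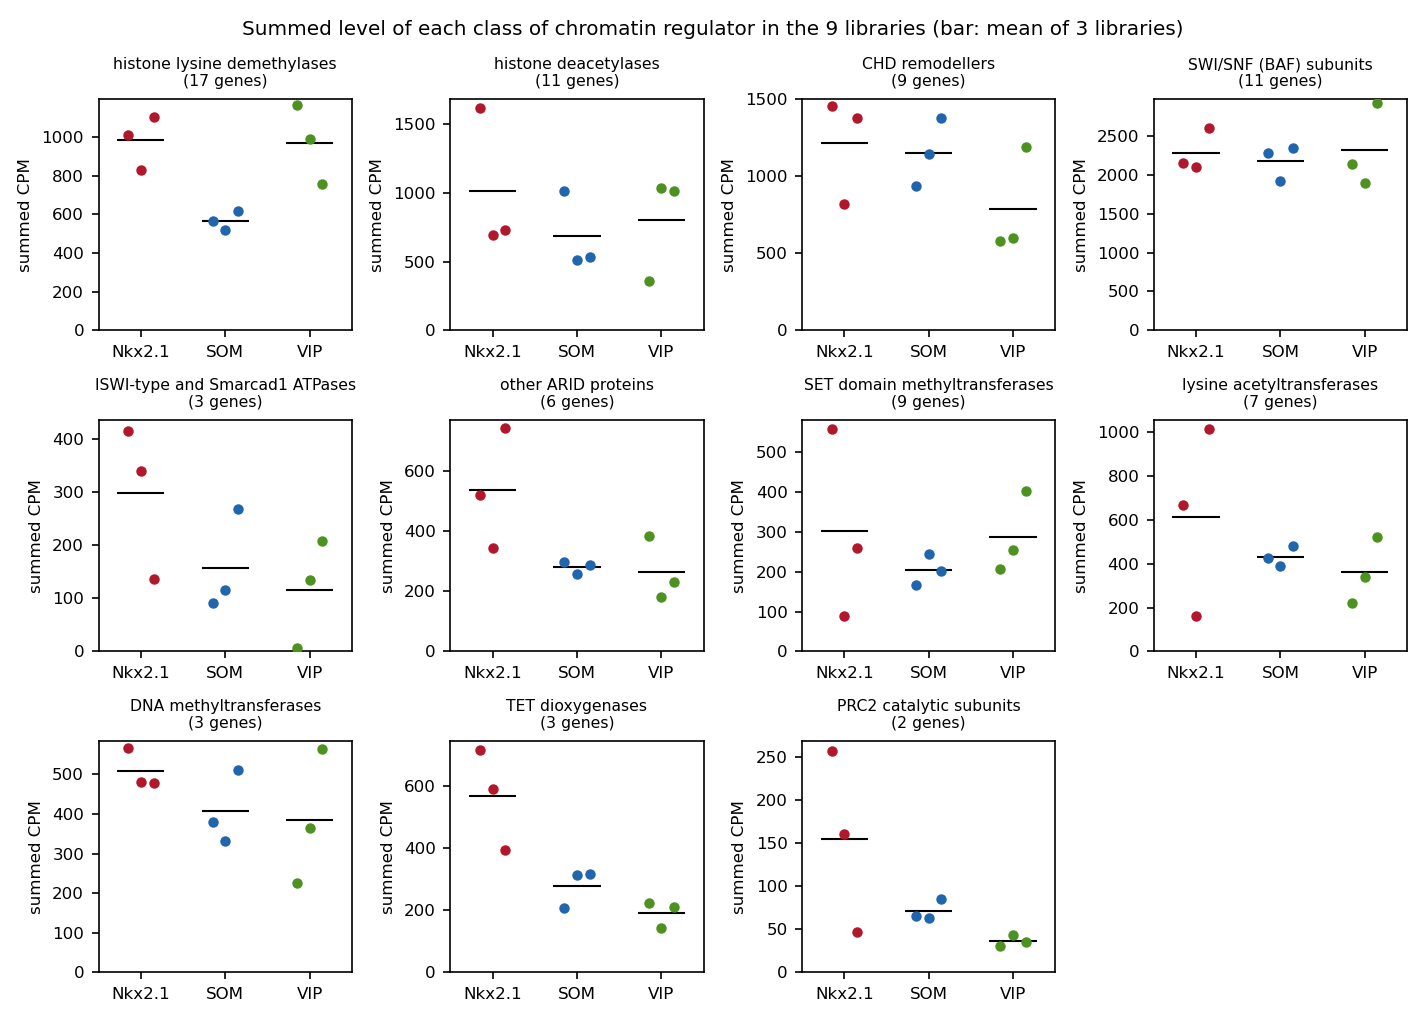
Summed level of the members of each class (y axis, CPM, from 0) by line (x axis). Each point is 1 library and the bar is the mean of 3 libraries. The TET sum is higher in the 3 Nkx2.1 libraries than in the other 6, the demethylase sum is lower in the 3 SOM libraries than in the other 6, and the SWI/SNF sum overlaps between all lines.

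The promoters of Setd1a, Smarcd1 and Tet2 are shown because these genes had the lowest unadjusted p of the members in Nkx2.1 against VIP, and because CpG sites are what DNA methyltransferases and TET enzymes act on. Each window covers 250 bases before to 50 bases after a RefSeq gene start in GRCm38.p6, 5′ to 3′ on the gene's strand, with each CpG (CG, which reads the same on both strands) in capitals. The windows lie at chr7:127777139-127777438, plus strand for Setd1a, chr15:99702037-99702336, plus strand for Smarcd1 and chr3:133544341-133544640, minus strand for Tet2.
Setd1a: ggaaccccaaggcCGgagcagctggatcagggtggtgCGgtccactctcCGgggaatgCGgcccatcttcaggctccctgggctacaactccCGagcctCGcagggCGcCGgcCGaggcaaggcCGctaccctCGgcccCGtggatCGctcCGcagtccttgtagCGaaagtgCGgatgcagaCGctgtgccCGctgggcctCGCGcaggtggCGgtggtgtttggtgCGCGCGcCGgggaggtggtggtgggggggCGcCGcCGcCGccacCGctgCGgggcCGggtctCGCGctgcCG
Smarcd1: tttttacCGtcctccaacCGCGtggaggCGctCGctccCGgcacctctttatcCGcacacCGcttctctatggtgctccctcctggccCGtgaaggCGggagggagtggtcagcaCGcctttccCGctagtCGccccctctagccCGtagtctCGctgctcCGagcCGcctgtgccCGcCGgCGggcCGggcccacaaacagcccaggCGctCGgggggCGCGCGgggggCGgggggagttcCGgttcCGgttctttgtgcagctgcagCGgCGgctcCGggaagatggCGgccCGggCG
Tet2: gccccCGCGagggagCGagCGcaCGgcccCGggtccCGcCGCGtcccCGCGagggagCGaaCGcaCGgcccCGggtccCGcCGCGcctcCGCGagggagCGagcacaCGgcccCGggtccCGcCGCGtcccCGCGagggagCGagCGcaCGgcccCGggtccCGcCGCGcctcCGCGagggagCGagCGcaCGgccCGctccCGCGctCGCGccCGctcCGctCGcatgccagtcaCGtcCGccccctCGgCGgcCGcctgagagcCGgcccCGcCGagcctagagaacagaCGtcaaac
They hold 35, 35 and 57 CpG sites. The RefSeq gene starts within them lie 719, 158 and 749 bases from the 5′ end of the gene in the GENCODE annotation. As many or more were present in 6.95% of all 32851 windows for Setd1a and for Smarcd1 and in 0.152% for Tet2. Such windows were matched for 64 of the 81 members, with a median of 22 CpG sites, against 7 over all windows. At least 10 CpG sites were present for 55 of the 64 members (85.9%) and in 43.5% of all windows. In the window nearest to the annotated start of the gene, Hdac9 and Kdm4c had 0 CpG sites, Setd5 had 1 and Dnmt1 had 2, the window of Setd5 belonging to a gene start 27570 bases from the annotated one. The CpG count is a property of the sequence and says nothing of methylation in these cells.

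Partners of these enzymes were read from a list of 118 genes of the BAF, NuRD, CoREST, Sin3, NCoR, PRC2, PRC1, COMPASS and ISWI complexes, other methyltransferases, acetyl readers and methyl-CpG readers. The tables held 110 of them, 4 of them without a read (Pcgf6, Cbx6, Suv39h1 and Zbtb38), and 94 were tested. Suv39h1 lies on the minus strand of the X chromosome, where 49.4% of protein-coding genes had no read in any library. Zbtb38 lies on the minus strand of chromosome 9, where 92.9% had none. No statement on the expression of these 4 genes is made. No partner was called by edgeR in any comparison (0 of 94 in each). At an edgeR unadjusted p under 0.05 there were 5 higher and 5 lower in Nkx2.1 against SOM (2.92% and 8.38% of all genes tested), 7 and 5 in Nkx2.1 against VIP (5.73% and 9.43%) and 5 and 1 in SOM against VIP (4.63% and 2.36%). DESeq2 called 8 of 94 when Nkx2.1 was set against SOM, 10 of 94 against VIP, and 3 of 96 between SOM and VIP (8.51%, 10.6% and 3.12%, beside 8.88%, 13% and 4.6% of all genes). The partners described here were chosen after their values were seen, apart from Actl6a, Actl6b and Rest.

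Bcl11a and Bcl11b, zinc finger proteins that join BAF complexes, were low in VIP. Bcl11a stood at 439, 124 and 188 CPM in Nkx2.1, 664, 781 and 596 CPM in SOM and 0.124, 24.8 and 7.43 CPM in VIP libraries, and Bcl11b at 183, 21.4 and 309 CPM in Nkx2.1, 210.5, 95.3 and 98.2 CPM in SOM and 0, 8.53 and 13.1 CPM in VIP libraries. All VIP libraries were below all Nkx2.1 and SOM libraries for both genes (edgeR adjusted p = 0.296 and 0.602 for SOM against VIP). Ep300, an acetyltransferase that marks enhancers, stood at 356, 432 and 219 CPM in Nkx2.1, 16.4, 62.5 and 113 CPM in SOM and 20.5, 13.7 and 24.7 CPM in VIP libraries, with Nkx2.1 above SOM and VIP in every library (edgeR adjusted p = 0.345 and 0.116). Aebp2, an accessory subunit of PRC2, stood at 0.114, 0.512 and 0.250 CPM in Nkx2.1, 46.5, 2.39 and 86.1 CPM in SOM and 89.1, 24.5 and 44.2 CPM in VIP libraries, with at most 6 reads in each Nkx2.1 library (edgeR adjusted p = 0.309 against SOM and 0.162 against VIP). Phf10, a subunit of progenitor-type BAF complexes, stood at 0.229, 0 and 0 CPM in Nkx2.1, 55.2, 24.3 and 27.2 CPM in SOM and 0.124, 27.1 and 7.10 CPM in VIP libraries. Actl6b, the neuronal actin-like BAF subunit, stood at 101 ± 37.0 CPM in Nkx2.1, 151 ± 50.1 CPM in SOM and 231 ± 99.8 CPM in VIP libraries, and its progenitor counterpart Actl6a at 42.2 ± 39.8 CPM in Nkx2.1, 16.1 ± 14.97 CPM in SOM and 43.6 ± 65.9 CPM in VIP libraries. Rest, a repressor of neuronal genes outside neurons, had 0 reads in all Nkx2.1 libraries and at most 13.0 CPM in any library. The groups overlapped for Actl6a in every comparison.

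Fewer members had a read in each Nkx2.1 library than in any SOM library. With every library thinned to 6484488 reads, the members with a read numbered 70, 62 and 69 in Nkx2.1, 72, 72 and 75 in SOM and 68, 73 and 74 in VIP libraries. All Nkx2.1 libraries lay below all SOM libraries, and the VIP libraries overlapped with both. The difference of the means was -6 members for Nkx2.1 minus SOM (two-sided exact permutation test, p = 0.1, the smallest that 3 against 3 libraries allow, and 0.3 after Benjamini-Hochberg adjustment over 3 comparisons). For Nkx2.1 minus VIP it was -4.67 (exact p = 0.3, adjusted 0.45), and for SOM minus VIP 1.33 (exact p = 0.8, adjusted 0.8). The same libraries held 7860 to 10231 genes with a read in Nkx2.1, 10759 to 11384 in SOM and 9530 to 10764 in VIP after thinning.

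Reads in all 9 libraries were found for 54 of the 74 tested members (73.0%), against 53.9% of all genes tested. Of the tested members 12.2% had 0 reads in Nkx2.1 replicate 2, the library with the fewest genes, against 28.6% of all genes tested. The spread within a line was nevertheless wide. Among members with a mean of at least 10 CPM over the 9 libraries, the median coefficient of variation was 90.6% in Nkx2.1, 58.3% in SOM and 70.2% in VIP libraries, beside 96.4%, 54.3% and 74.01% for all tested genes at that level. A coefficient below 50% in every line was found for 4 members: Tet2, Chd4, Smarce1 and Smarcc2.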

How the data were processed

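RNA of 9 libraries had been sequenced and deposited as 1 table of read counts per gene symbol for each library. The submitters' processing notes name TopHat2 2.0.9, DESeq2 and the mouse genome mm10. What program counted the reads, and whether by strand, is not given in the sources used here. The 5 summary entries that are no genes (83.6% to 85.2% of the table totals) were left out, after which the deposited counts were used as they were.

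The members, partner lists and marker lists were chosen with earlier results of these data known. Counts were tested with edgeR 4.0.16 in R 4.3.3 (quasi-likelihood test, TMM scaling, minimum count 10, all 9 libraries, line as the only term, Benjamini-Hochberg adjustment over 10728 genes). Each SE was computed from the log2 fold change and its F. DESeq2 1.42.0 was an alternative, and the method was tested on simulated data. CPM are counts over TMM-scaled totals. For detection the libraries were thinned to 6484488 reads. Gene positions and merged exon lengths came from the GENCODE M21 annotation of GRCm38. Exons of all annotated transcripts were merged for levels per kilobase, so the order of genes by such levels can depend on that choice. Overlaps with other genes used the smaller basic set of transcripts. Intervals and floors of 3 reads take reads as independent and leave out the spread between libraries.

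Named were, for each comparison and direction, the 3 tested members of largest fitted change with a mean of at least 10 CPM in the higher line and no overlap, the 2 members of each class with the highest mean CPM, and a list of 24 regulators. Other scalings, no filter, only the compared lines, each library left out and a replicate block were also tried.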

Additional observations from a re-analysis of the deposited data

How the results depend on the processing

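The count of members called was 0 in each comparison under every edgeR alternative, and DESeq2 called 2, 9 and 1 of them for Nkx2.1 over SOM, Nkx2.1 over VIP and SOM over VIP. The lowest adjusted p of a member over the edgeR alternatives was 0.235, 0.0897 and 0.136 in the same order. The count of partners called was 0 throughout with edgeR, and 8, 10 and 3 with DESeq2. None of the 27 fitted values printed changed sign in the alternatives that gave it a value, 15 for each but Arid3a, which had 14 and no value with only the compared lines. Of 123 fitted values computed for all named and singled-out genes, 46 changed sign in at least 1 alternative. The 27 printed values had been picked for groups without overlap, an edgeR unadjusted p under 0.05 or a DESeq2 call. That choice largely fixed their signs beforehand, so these counts are no measure of robustness.

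Leaving out 1 library moved several printed log2 values by over 1.5 times in fold. For Nkx2.1 over SOM these were Kdm5b (1.35 without Nkx2.1 replicate 3), Setd1a (-8.33 without Nkx2.1 replicate 2, -6.33 without SOM replicate 1) and Setd5 (-6.28 without Nkx2.1 replicate 1). For Nkx2.1 over VIP they were Chd8 (1.16) and Smarcd1 (-3.83) without Nkx2.1 replicate 1, Chd7 (-8.27 without Nkx2.1 replicate 1, -5.96 without VIP replicate 3) and Setd8 (5.18 without Nkx2.1 replicate 1, 7.46 without Nkx2.1 replicate 3). Without Nkx2.1 replicate 2 they were Arid5b (4.78), Chd2 (1.96), Kdm6b (-4.28) and Setd1a (-9.68), and without Nkx2.1 replicate 3 Arid3a (-11.73). Without VIP replicate 1 they were Arid4a (3.31) and Kdm6b (-2.18), without VIP replicate 2 Arid5b (13.09), and without VIP replicate 3 Arid3a (-6.68) and Chd2 (3.13). For SOM over VIP they were Chd7 (-9.93 without SOM replicate 1, -7.60 without VIP replicate 3), Kdm5b (-1.56) and Setd7 (-2.18) without VIP replicate 1, Setd7 (-6.13) without SOM replicate 3 and Tet1 (8.64) without VIP replicate 2.

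Counts of all genes called moved more. Nkx2.1 against SOM gave 10 genes, 5 with only those lines, 942 with DESeq2 and 0 to 37 when 1 library was left out (0 without SOM replicate 2, 37 without Nkx2.1 replicate 1). Nkx2.1 against VIP gave 33 genes, 20 with only those lines, 1377 with DESeq2 and 12 to 48 when 1 library was left out (12 without VIP replicate 3, 48 without Nkx2.1 replicate 1). SOM against VIP gave 8 genes, 21 without the filter, 32 with only those lines, 500 with DESeq2 and 3 to 17 when 1 library was left out (3 without SOM replicate 2 or 3, 17 without Nkx2.1 replicate 2). With the replicate block the counts were 4, 11 and 4. Libraries of the same number did not deviate together (correlations of -0.0412 to 0.0671 over 9 pairs). The labels do not say what a shared number means, and a shared litter, day or preparation was not tested. The cause of the differences between these counts was not tested.

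Scaling by library totals alone shifted the median of all genes to -0.16, -0.18 and -0.042, and that of the members to 0.25, 0.027 and -0.18. Under it the mean sums of CHD (1111 CPM in Nkx2.1, 1176 CPM in SOM) and BAF members (2112 CPM in Nkx2.1, 2226 CPM in SOM) changed order, as did those of demethylases (904 CPM in Nkx2.1, 1013 CPM in VIP) and SET domain members (264 CPM in Nkx2.1, 301 CPM in VIP).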
